A study of Mus musculus with 6 samples.

Results

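Solute carriers are membrane proteins that move nutrients, ions and metabolites into the cell, out of it or between its compartments, and the Slc gene symbols group them into families by sequence and substrate. After activation, a CD8+ T cell raises its uptake of glucose, glutamine, leucine and iron, and Slc2a1, Slc1a5 and the Slc7a5 and Slc3a2 pair are the best known transporters of this switch. Mitochondrial carriers of the Slc25 family then pass nucleotides, phosphate, citrate and acyl groups across the inner mitochondrial membrane, and most Slc35 proteins bring nucleotide sugars into the endoplasmic reticulum and Golgi. The genes described here were chosen by their symbol and level: the symbol begins with Slc and a digit, and the FPKM (counts divided by gene length and by the total count of the library) averaged at least 1 over 6 libraries of CD8+ effector T cells (Teff). Of 377 such symbols among 34745 rows, 148 met this minimum.

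The libraries were 3 from wild-type (WT) C57BL/6J mice and 3 from B6.129-Scd1tm1Ntam/J mice (Scd-1-/-), which lack the desaturase that makes monounsaturated from saturated fatty acids, and each genotype carried the replicate numbers 1, 2 and 3. The mice were males of 6 to 8 weeks, and the knockout was of the whole animal and came from another source than the WT mice, so strain origin and genotype cannot be told apart. Splenic CD8+ T cells of both genotypes were stimulated for 3 days with 5 μg/mL anti-CD3 and 0.5 μg/mL anti-CD28 beside 100 U/mL IL-2, kept 3 more days in IL-2, and harvested on day 6. The study's methods speak of independent experiments for its results in general, but the sources used here do not say whether these libraries came from separate mice or cultures, so the p-values measure the spread between these libraries, which may be technical.

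Libraries held 14034479 to 15866216 counts, of which the 148 members took from 0.949% to 1.098%. The target gene Scd1 was at 45.3 to 58.2 FPKM in WT and 0.261 to 0.528 FPKM in Scd-1-/- libraries. The 6 CD8 T cell markers were all above the minimum and summed to 1885 to 2379 FPKM in WT cells against 1837 to 2108 in Scd-1-/- cells, while Cd8a alone was at 43.2, 47.6 and 47.1 FPKM in WT and at 36.6, 27.9 and 33.7 FPKM in the Scd-1-/- libraries, without overlap. Of 5 natural killer markers, Ncr1, Klra8 and Klra4 were below 0.222 FPKM in every library, while the sum of all 5 was 4.12 to 5.22 FPKM in WT cells against 11.2 to 23.9 in Scd-1-/- cells through Eomes and Klrb1c. The study also measured Eomes in Teff by flow cytometry and reports it as higher in Scd-1-/- cells. Of 6 B cell markers, Cd79b held nearly the whole sum, which was 9.42 to 10.7 FPKM in WT cells against 3.13 to 7.996 in Scd-1-/- cells, with Ms4a1 and Pax5 at 0. The sum of 6 myeloid markers was 0.179 to 0.484 FPKM in WT cells against 1.14 to 1.94 in Scd-1-/- cells, there nearly all Cd14, with Adgre1 and Mpo at 0 in every library, that of 3 CD4 T cell markers was 6.15 to 11.96 and 8.01 to 11.2 FPKM, nearly all Zbtb7b with Cd4 and Foxp3 below 0.345 FPKM, and those of the 5 erythroid and 4 platelet markers did not pass 0.465 FPKM. The part of these markers in the differences below was not tested. In bulk RNA, fewer cells of a type and less RNA per cell cannot be told apart. The libraries numbered 1 stood apart from those numbered 2 and 3 in both genotypes: in a fit of genotype and replicate number with the edgeR quasi-likelihood test, 15.9% of the 9627 genes that averaged 1 FPKM or more differed between replicate numbers at an adjusted p under 0.05. Deviations from the group means correlated across genes between same-numbered libraries, at r of 0.583, 0.297 and 0.459 for numbers 1, 2 and 3. For number 2 this was below the 0.357 of WT replicate 3 with Scd-1-/- replicate 2, so that pair is not set apart. Replicate number is therefore an uncertain pairing, and the fit with it as a block is given beside the plain fit where it changes a call.

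By substrate, the 148 members comprised 10 of 24 sugar and sugar phosphate transporters, 18 of 62 amino acid transporters, 23 of 101 transporters of other metabolites and vitamins, 31 of 47 mitochondrial carriers, 21 of 28 transporters of nucleotide sugars and acetyl-CoA, 21 of 32 metal transporters, 17 of 62 ion transporters and 7 of 21 genes of other or unknown kind. Within the last set, Slc9a3r1 encodes a scaffold protein, and it, Slc4a1ap, Slc7a6os, Slc36a3os and Slc2a4rg-ps are 5 members that carry an Slc symbol without being transporters. All 148 had a count in each library, and 146 are annotated as protein coding. The levels chose the members and are therefore given without a test. Member FPKM had a median of 5.36 and ran from 1.07 to 293.8, compared with a median of 7.25 over all 9627 genes. Of the 229 symbols under the minimum, 106 had no count in any library. Just inside the minimum lay Slc25a26 (1.07), Slc2a9 (1.08), Slc2a6 (1.11) and Slc30a1 (1.13), and just outside lay Slc6a9 (0.981), Slc44a1 (0.944), Slc6a19 (0.894) and Slc17a7 (0.874 FPKM). In 5 members, Slc2a6, Slc37a2, Slc2a9, Slc14a1 and Slc25a22, only 1 genotype reached an average of 1.

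The most abundant member was Slc25a5, one of the ADP/ATP exchangers of the inner mitochondrial membrane. Its FPKM was 271, 322 and 285 in WT replicates 1 to 3 and 261, 311 and 312 in the Scd-1-/- replicates, so the genotypes overlapped. Its sister exchanger Slc25a4 was at 92.6 ± 6.7 FPKM in WT cells against 101 ± 3.9 in Scd-1-/- cells (SD, n = 3), and the phosphate carrier Slc25a3 at 75.2 ± 4.8 and 75.2 ± 4.6 FPKM. Slc25a5 made up 75.9% ± 2.9 of the summed FPKM of the 2 exchangers in WT cells against 74.4% ± 2.4 in Scd-1-/- cells (SD, n = 3). The scaffold gene Slc9a3r1 stood at 153 to 165 FPKM in WT cells against 139 to 179 in Scd-1-/- cells. Slc7a5, the light chain of the leucine exchanger LAT1, had 88.8, 167 and 158 FPKM in WT cells against 111, 152 and 132 in Scd-1-/- cells, and was lowest in replicate 1 of both. Its heavy chain Slc3a2 was between 41.5 and 60.9 FPKM, the glutamine transporter Slc1a5 between 32.9 and 45.1, and the choline transporter-like gene Slc44a2 between 73.7 and 105 FPKM.

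**Figure D1:**
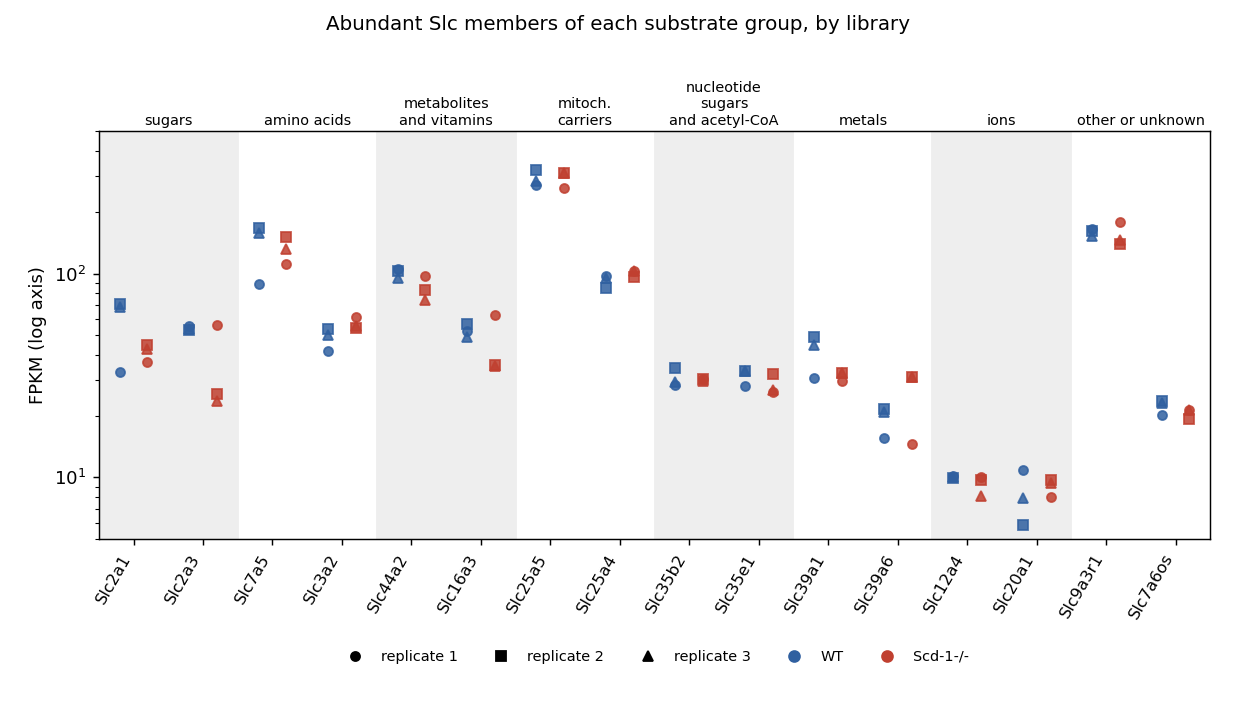
FPKM (log axis) of 2 abundant members of each substrate group, with a point for each library, blue for WT, red for Scd-1-/- and a shape for each replicate number. Slc25a5 sits highest, at 261 to 322 FPKM in all 6 libraries, and the ion transporters sit lowest, while the red circle of Slc2a3 stands above its other red points.

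The comparison of Scd-1-/- with WT Teff asked whether loss of the desaturase went with other levels of transporter RNA. In the plain fit, 0 of the 148 members passed the thresholds (log2 fold change of 1 or more in either direction, unadjusted p under 0.001), against 0.738% of all 9627 genes, and 0 had an adjusted p under 0.05, against 0.114% (edgeR quasi-likelihood test, Benjamini-Hochberg adjustment over all genes). At an unadjusted p under 0.05 there were 8 members (5.41%), compared with 10.1% of all genes. The log2 fold change was above 0 in 63 members and below 0 in 85 (49.9% and 50.1% of all genes), with a median of -0.04 against -0.00051 over all genes and a median size of 0.173 against 0.178. The 95% interval lay within -1 to 1 in 105 members (70.9%, against 77% of all genes), so in the other 43 a difference of that size remained within the interval. The 3 Scd-1-/- libraries lay wholly above the 3 WT libraries in 5 members and wholly below in 10 (7.67% and 8.32% of all genes), together 10.1% of the members against 16% of all genes. An exact permutation test of 3 against 3 libraries cannot give a two-sided p under 0.1.

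Once the replicate number entered as a block, 2 members passed the thresholds (1.35%, against 1.91% of all genes): Slc2a6 was lower and Slc37a2 higher in Scd-1-/- Teff, where 0.717% and 1.19% of all genes passed in these directions. In that fit, 7 members had an adjusted p under 0.05 (edgeR with block), 4.73% of the members beside 4.7% of all genes. They were Slc2a6, Slc12a7, Slc43a2, Slc4a8 and Slc25a23, all lower in Scd-1-/- Teff (2.06% of all genes), and Slc37a2 and Slc16a10, both higher (2.64% of all genes). The share of members called was thus near the background in each fit.

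**Figure D2:**
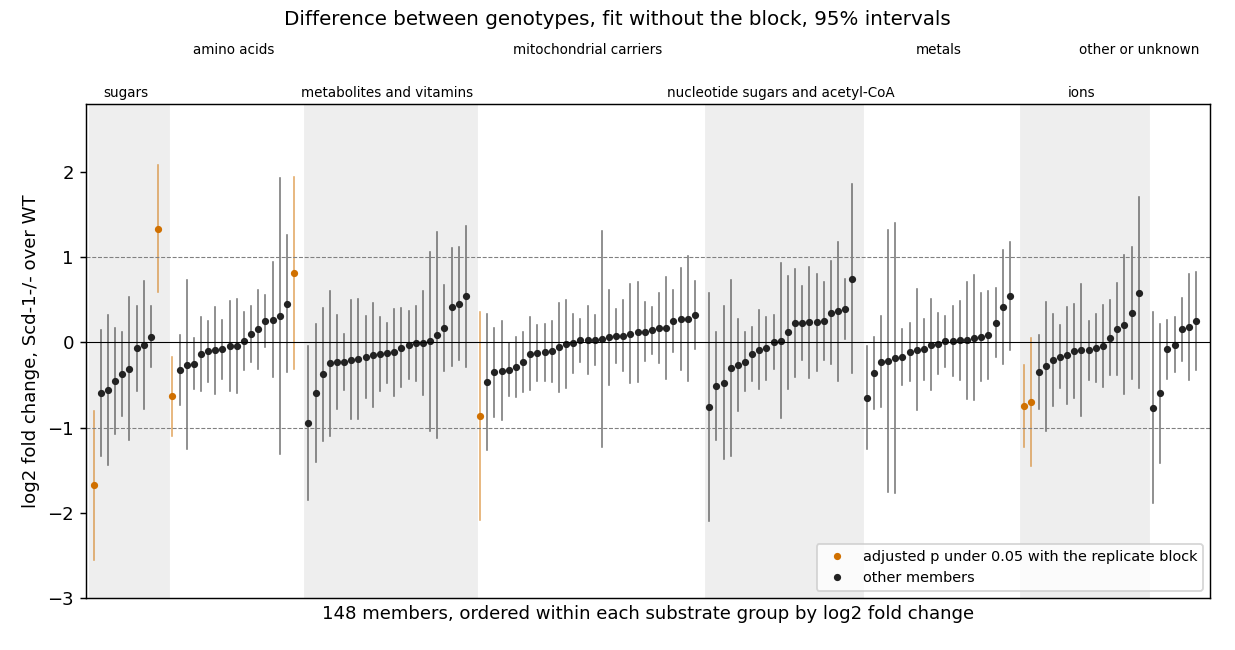
Log2 fold change of Scd-1-/- over WT Teff (vertical axis) for the 148 members, ordered by value within each substrate group, with 95% intervals from the fit without the block and dashed lines at -1 and 1. Orange points mark the 7 members with an adjusted p under 0.05 once the replicate number was a block. The 2 that lie beyond the dashed lines are both in the sugar group, and each reached the FPKM minimum through its higher genotype alone.

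Slc2a6 and Slc37a2, the members past the thresholds of the blocked fit, are both sugar or sugar phosphate transporters, and each reached the FPKM minimum only through the genotype in which it was higher, so their number says nothing of the sugar group. Slc2a6, a hexose transporter of the GLUT family, had 0.992, 2.32 and 1.79 FPKM in WT replicates 1 to 3 and 0.451, 0.697 and 0.417 FPKM in the Scd-1-/- replicates. All Scd-1-/- libraries lay below all WT libraries, and the counts behind these values were 75, 162 and 127 against 35, 49 and 33. The log2 fold change was -1.68 (SE 0.38), with an adjusted p of 0.174 in the plain fit and 0.0174 with the block (edgeR). Slc37a2, a sugar phosphate exchanger of the endoplasmic reticulum best known from macrophages, had 1.06, 0.594 and 0.505 FPKM in WT cells against 1.95, 1.85 and 1.59 in Scd-1-/- cells. Here all Scd-1-/- libraries lay above all WT libraries. The log2 fold change was 1.34 (SE 0.32), with an adjusted p of 0.202 in the plain fit and 0.0196 with the block (edgeR). In a blocked fit of all 17192 genes with a count, where no FPKM minimum applies, the adjusted p was 0.00529 for Slc2a6 and 0.00545 for Slc37a2 (edgeR, added after seeing the data).

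The start regions of both genes, and of Slc6a19 described further on, are shown because these Slc genes passed the thresholds, Slc2a6 and Slc37a2 in the blocked fit and Slc6a19 in a fit of all genes with a count. Each is 300 bases of GRCm38.p6 from RefSeq, 5′ to 3′ on the gene's strand, spanning the RefSeq start. For Slc2a6 and Slc37a2 the window also holds the GENCODE start, whereas for Slc6a19 it lies inside the GENCODE gene, 11979 bases from the start given there. Capitals mark the AP-1 letters TGANTCA.
Slc2a6, chr2:27027949-27028248, minus strand: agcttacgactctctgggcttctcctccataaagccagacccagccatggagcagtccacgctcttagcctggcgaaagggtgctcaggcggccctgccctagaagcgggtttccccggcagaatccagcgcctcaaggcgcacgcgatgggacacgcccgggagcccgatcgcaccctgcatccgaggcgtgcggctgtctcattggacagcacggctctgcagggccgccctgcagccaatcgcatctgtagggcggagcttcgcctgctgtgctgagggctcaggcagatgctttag
Slc37a2, chr9:37255689-37255988, minus strand: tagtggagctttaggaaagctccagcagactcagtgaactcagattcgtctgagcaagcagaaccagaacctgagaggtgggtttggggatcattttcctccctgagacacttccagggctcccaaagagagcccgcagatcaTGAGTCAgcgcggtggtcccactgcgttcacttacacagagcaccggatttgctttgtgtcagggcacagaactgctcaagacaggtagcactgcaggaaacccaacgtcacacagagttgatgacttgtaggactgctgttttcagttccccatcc
Slc6a19, chr13:73692587-73692886, minus strand: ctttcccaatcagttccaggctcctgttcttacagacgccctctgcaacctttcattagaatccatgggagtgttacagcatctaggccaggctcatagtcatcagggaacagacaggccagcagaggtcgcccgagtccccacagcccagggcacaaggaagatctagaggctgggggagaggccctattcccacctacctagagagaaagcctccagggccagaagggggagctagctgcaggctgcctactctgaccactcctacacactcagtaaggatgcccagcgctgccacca
The window of Slc37a2 held 1 AP-1 match, which is part of no other motif searched, and the windows of Slc2a6 and Slc6a19 held none of the 6 motifs searched. The ratio of observed to expected CpG was 0.703 for Slc2a6, 0.336 for Slc37a2 and 0.164 for Slc6a19, against a median of 0.722 over the 111 members with a RefSeq window and 0.794 over the 7101 tested genes with one. Searched on both strands, AP-1 letters were in 7.21% of member windows and 4.37% of all windows, the E-box CACGTG in 14.4% and 10.8%, the cyclic AMP element TGACGTCA in 0.901% and 3.51%, the T-box letters GGTGTGA in 2.7% and 3.27%, the TCF letters CTTTGAT in 3.6% and 2.53%, and TATAAA in 5.41% and 6.34%. A match in these letters is a description of the window and not a binding site.

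The 3 most abundant sugar transporters overlapped between genotypes and passed neither fit. Slc2a3, which encodes the high-affinity glucose transporter GLUT3, had 55.1, 53.1 and 53.3 FPKM in WT cells against 56.2, 25.6 and 23.7 in Scd-1-/- cells. Scd-1-/- replicate 1 was thus at the WT level, and the other two Scd-1-/- libraries were below every WT library. The log2 fold change was -0.59 (SE 0.32) with an adjusted p of 0.59 in the plain fit and 0.101 with the block (edgeR). Slc2a1, which encodes GLUT1, had 32.8, 70.8 and 68.9 FPKM in WT cells against 36.9, 44.5 and 42.6 in Scd-1-/- cells, and here WT replicate 1 was the lowest of all 6. Its log2 fold change was -0.45 (SE 0.27) with an adjusted p of 0.643 in the plain fit and 0.224 with the block (edgeR). Slc37a4, the glucose 6-phosphate transporter of the endoplasmic reticulum, had 49.4, 34.6 and 31.1 FPKM in WT cells against 48.9, 20.7 and 22.3 in Scd-1-/- cells, with replicate 1 highest in both genotypes, and its adjusted p was 0.859 in the plain fit and 0.184 with the block (edgeR). In replicates 2 and 3 alone, where 7 members passed the thresholds and 20 the adjusted p (3.83% and 12.6% of all genes, edgeR), the log2 fold change was -1.07 for Slc2a3, -0.65 for Slc2a1 and -0.58 for Slc37a4. The libraries left out there are those in which these genes stood closest between genotypes, so the values are no support for a difference. Of the 10 sugar members, 8 had a log2 fold change below 0 (50.1% of all genes), with a median of -0.34. Summed over the 10, FPKM was 170.8, 193.1 and 185.9 in WT cells against 176.1, 121.4 and 116 in Scd-1-/- cells, so the Scd-1-/- sum was lower than that of its WT number in replicates 2 and 3 and slightly higher in replicate 1. Slc2a3 took 62.7% of the summed FPKM of Slc2a3 and Slc2a1 in WT replicate 1 and 60.4% in Scd-1-/- replicate 1, against 42.9% and 43.6% in the other WT libraries and 36.6% and 35.7% in the other Scd-1-/- libraries. Slc2a9, which moves urate, was at 0.784 to 1.84 FPKM in WT cells against 0.658 to 1.22 in Scd-1-/- cells.

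**Figure D3:**
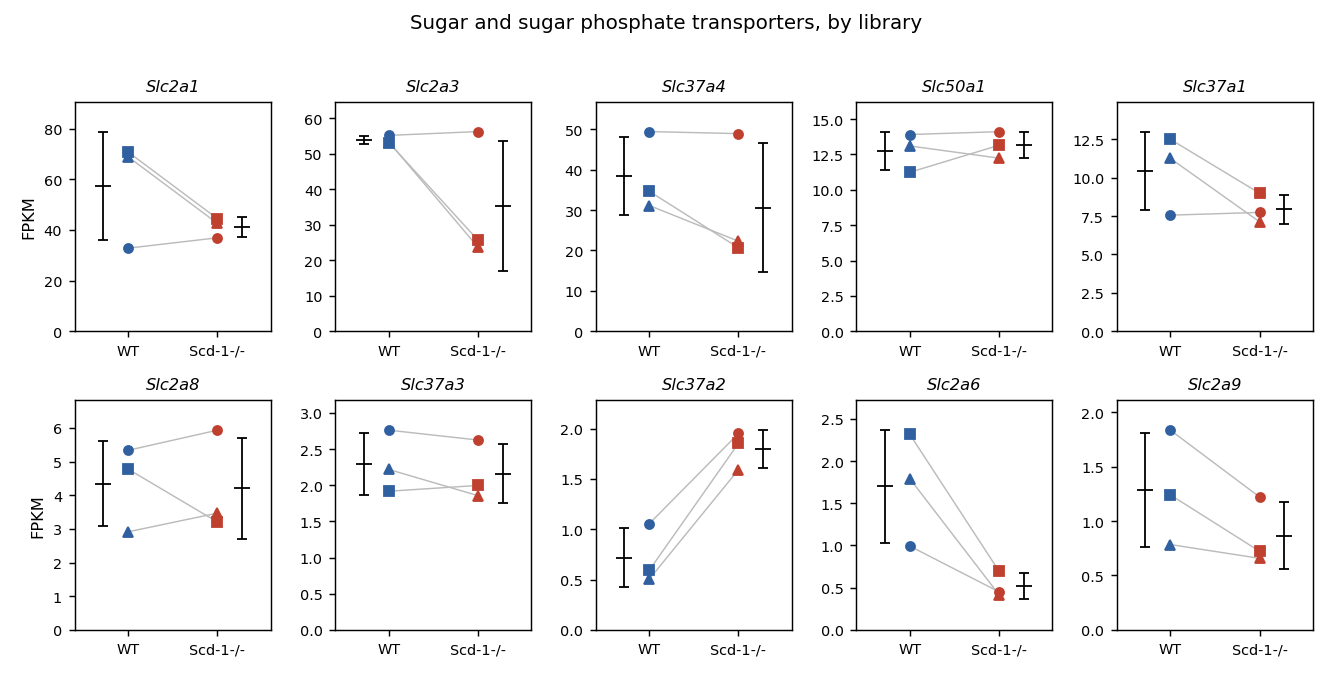
FPKM of the 10 sugar and sugar phosphate transporters in each library (vertical axes, from 0), with circles for replicate 1, squares for replicate 2, triangles for replicate 3, grey lines between same-numbered libraries, and bars for the mean and SD of 3 libraries. Slc2a3 is level between genotypes in replicate 1 and goes from 53.1 to 25.6 and from 53.3 to 23.7 FPKM in replicates 2 and 3, whereas Slc2a6 and Slc37a2 differ in the same direction in all 3.

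Of the 3 most abundant amino acid transporters, Slc7a5 and Slc1a5 overlapped between genotypes and Slc3a2 did not. Slc3a2 had 41.5, 53.2 and 50.03 FPKM in WT cells against 60.9, 53.8 and 55.1 in Scd-1-/- cells. The Scd-1-/- libraries lay above the WT libraries, by 0.26 on the log2 scale (SE 0.13), with an adjusted p of 0.573 (edgeR, plain fit). The log2 fold change was -0.04 (95% interval -0.59 to 0.51) for Slc7a5, 0.02 (-0.33 to 0.36) for Slc1a5, -0.09 (-0.60 to 0.42) for Slc38a1 and 0.10 (-0.23 to 0.43) for Slc38a2, the last a pair of sodium-coupled neutral amino acid transporters. Slc43a2, which encodes the facilitative carrier LAT4 for large neutral amino acids, had 2.98, 3.21 and 2.84 FPKM in WT cells against 2.395, 1.85 and 1.49 in Scd-1-/- cells. Its genotypes did not overlap, its log2 fold change was -0.63 (SE 0.20), and its adjusted p was 0.344 in the plain fit and 0.0455 with the block (edgeR). Slc16a10, the aromatic amino acid transporter TAT1, had 1.06, 2.67 and 3.36 FPKM in WT cells against 1.95, 5.44 and 4.85 in Scd-1-/- cells. Each Scd-1-/- library was above the WT library of its number although the genotypes overlapped, with a log2 fold change of 0.82 (SE 0.48) and an adjusted p of 0.637 in the plain fit and 0.0345 with the block (edgeR). Slc7a1, the arginine transporter, was lower without overlap, at 12.3 ± 1.1 FPKM in WT cells against 10.2 ± 0.81 in Scd-1-/- cells (SD, n = 3), and its log2 fold change of -0.25 did not pass either fit (adjusted p = 0.585 and 0.195, edgeR). Slc7a6 had a log2 fold change of -0.14 (-0.58 to 0.30).

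Slc6a19, which encodes the sodium-coupled neutral amino acid transporter B0AT1 known from kidney and gut, fell outside the FPKM minimum and was the single one of 123 Slc symbols with counts below it to pass the thresholds in a fit of all 17192 genes with a count, where 148 genes (0.861%) passed and 0.489% had an adjusted p under 0.05. It had 237, 178 and 136 counts (1.86, 1.51 and 1.14 FPKM) in WT cells against 45, 33 and 30 counts (0.345, 0.279 and 0.226 FPKM) in Scd-1-/- cells. The lowest WT library had over 3 times the count of the highest Scd-1-/- library. The log2 fold change was -2.40 (SE 0.31), 5.26-fold lower in Scd-1-/- Teff, with an adjusted p of 0.0137 (edgeR, plain fit of 17192 genes). The adjusted p was above 0.05 in 3 of the 6 fits that left out 1 library, at 0.137 without WT replicate 2 and at 0.169 and 0.0725 without replicates 2 and 3 of Scd-1-/- (edgeR). In that fit the 123 symbols gave 0.813% past the thresholds. Slc6a19 (chr13:73679745-73704865, minus strand, GRCm38, GENCODE M21) lies 28.2 kb from the member Slc12a7 (chr13:73733094-73816754, plus strand). Its other neighbours Slc6a18, Slc6a19os and Nkd2 had at most 2, 1 and 29 counts in any library.

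Slc12a7 was also the only ion transporter whose genotypes did not overlap together with an adjusted p under 0.05 in the blocked edgeR fit. It encodes KCC4, a potassium and chloride cotransporter that lowers cell volume, and had 9.60, 9.36 and 8.62 FPKM in WT cells against 6.83, 5.22 and 4.14 in Scd-1-/- cells. The genotypes did not overlap, the log2 fold change was -0.75 (SE 0.21), and the adjusted p was 0.269 in the plain fit and 0.0271 with the block (edgeR). The related cotransporter Slc12a4 was at 10.0 ± 0.074 FPKM in WT cells against 9.27 ± 1.0 in Scd-1-/- cells (SD, n = 3), so that Slc12a7 made up 47.8% ± 1.3 of the summed FPKM of the pair in WT cells against 36.5% ± 3.6 in Scd-1-/- cells. Slc4a8, a sodium and bicarbonate transporter, had 2.11, 1.47 and 1.34 FPKM in WT cells against 1.42, 0.938 and 0.648 in Scd-1-/- cells. Each Scd-1-/- library was below the WT library of its number, with a log2 fold change of -0.69 (SE 0.32) and an adjusted p of 0.532 in the plain fit and 0.0437 with the block (edgeR). The phosphate transporter Slc20a1 had a log2 fold change of 0.16 (-0.39 to 0.70), and the sodium, potassium and chloride cotransporter Slc12a2 of 0.35 (-0.43 to 1.12). Slc9a8, an exchanger of the Golgi, was lower without overlap, by -0.35 on the log2 scale (adjusted p = 0.59, edgeR, plain fit). Of the 17 ion transporters, 12 had a log2 fold change below 0 (50.1% of all genes).

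**Figure D4:**
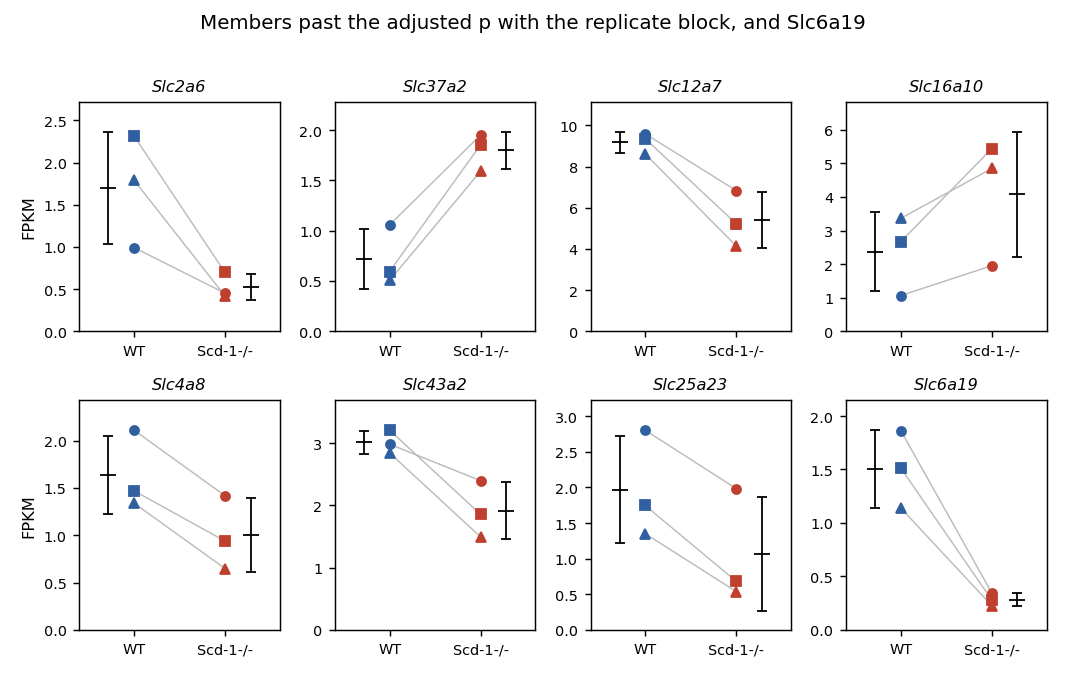
FPKM by library (vertical axes, from 0) of the 7 members with an adjusted p under 0.05 in the blocked fit, and of Slc6a19 from outside the FPKM minimum. Shapes mark the replicate numbers, grey lines join same-numbered libraries and bars give the mean and SD of 3 libraries. All lines slope one way in each panel, while the points of Slc16a10, Slc4a8 and Slc25a23 overlap between genotypes.

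Mitochondrial carriers formed the largest group. The 95% interval lay within -1 to 1 for 27 of the 31, and log2 fold changes ran from -0.86 to 0.32. Slc25a23, a calcium-regulated ATP-Mg and phosphate carrier, had 2.81, 1.75 and 1.35 FPKM in WT cells against 1.98, 0.682 and 0.538 in Scd-1-/- cells. The genotypes overlapped through replicate 1, the log2 fold change was -0.86 (SE 0.53), and the adjusted p was 0.649 in the plain fit and 0.0479 with the block (edgeR). With 1 library left out, the log2 fold change of Slc25a23 ran from -1.68 to -0.50. Slc25a28 and Slc25a39, an iron carrier and a glutathione carrier, were lower without overlap, by -0.29 and -0.32 on the log2 scale, and Slc25a36, a pyrimidine nucleotide carrier, was higher without overlap by 0.26. None of the 3 had an adjusted p under 0.05 in either fit (0.585, 0.479 and 0.648 in the plain edgeR fit). The citrate carrier Slc25a1 had a log2 fold change of -0.23 (-0.59 to 0.12), and the acylcarnitine carrier Slc25a20 of 0.08 (-0.24 to 0.40). Slc25a26, which carries S-adenosylmethionine, was at 0.802 to 1.27 FPKM in all 6 libraries.

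Among transporters of other metabolites and vitamins, 17 of 23 had a log2 fold change below 0 (50.1% of all genes) and none passed either fit. Slc14a1, a urea transporter, had 1.73, 1.65 and 1.54 FPKM in WT cells against 1.37, 0.510 and 0.630 in Scd-1-/- cells, without overlap. Its log2 fold change was -0.94 (SE 0.39), with an adjusted p of 0.473 in the plain fit and 0.0876 with the block (edgeR). As Slc14a1 reached the FPKM minimum through WT cells alone, these values are no support for a difference. Slc16a3, which encodes the lactate exporter MCT4, had 52.5, 56.7 and 49.0 FPKM in WT cells against 62.2, 35.4 and 35.0 in Scd-1-/- cells, and so, like Slc2a3, it was below the WT libraries in Scd-1-/- replicates 2 and 3 and not in replicate 1. The monocarboxylate transporter Slc16a1 had 20.5, 26.8 and 36.1 FPKM in WT cells against 18.4, 30.6 and 32.2 in Scd-1-/- cells, lowest in replicate 1 of both. The heme transporter Slc48a1 (log2 fold change -0.03, -0.42 to 0.37), the nucleoside transporter Slc29a1 (-0.12, -0.48 to 0.23), the folate transporter Slc19a1 (-0.25, -1.09 to 0.60) and Slc44a2 (-0.23, -0.56 to 0.10) did not pass either fit.

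The metal transporters had the smallest median size of log2 fold change of the 8 sets, 0.0889. The zinc importers Slc39a1, Slc39a6 and Slc39a4 were the most abundant, and the importer Slc39a6 had 15.6, 21.8 and 21.0 FPKM in WT cells against 14.7, 31.0 and 31.0 in Scd-1-/- cells, with replicate 1 lowest in both. For Slc39a1, the FPKM was 41.3 ± 9.5 in WT cells against 31.6 ± 1.6 in Scd-1-/- cells (SD, n = 3), and for Slc39a4 it was 21.7 ± 1.8 and 21.1 ± 1.8. Slc41a1, a magnesium transporter, was lower without overlap, at 1.91, 2.34 and 2.98 FPKM in WT cells against 1.13, 1.66 and 1.74 in Scd-1-/- cells, and its log2 fold change of -0.65 (SE 0.26) had an adjusted p of 0.464 in the plain fit and 0.0847 with the block (edgeR). The iron transporter Slc11a2 had a log2 fold change of -0.08 (-0.44 to 0.28).

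Among transporters of nucleotide sugars and acetyl-CoA, the sulfate donor transporter Slc35b2 was at 28.3 to 34.4 FPKM in all libraries, Slc35e1 at 26.3 to 33.4 and the GDP-fucose transporter Slc35c1 at 11.4 to 15.6. Slc35c2, a Golgi protein linked to fucosylation, was higher without overlap, at 10.3 ± 1.3 FPKM in WT cells against 13.3 ± 1.6 in Scd-1-/- cells (SD, n = 3). Its log2 fold change was 0.39 (SE 0.15), and its adjusted p was 0.448 in the plain fit and 0.0769 with the block (edgeR). Slc35f5 was lower without overlap, by -0.51 on the log2 scale (adjusted p = 0.586, edgeR, plain fit). In the set of other kind, Slc7a6os was at 20.2 to 23.7 FPKM in WT cells against 19.3 to 21.5 in Scd-1-/- cells, and Slc36a3os at 11.2 to 18.8 and 6.68 to 13.0 FPKM. Antisense and overlapping genes such as Slc36a3os are uncertain, since nothing states whether counting used the strand, and 80.7% of the exon bases of the zinc transporter Slc39a7 are shared with Gm20427 on its own strand.

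In the fit of genotype and replicate number, more members passed for the replicate terms than the 7 that passed for genotype. For these terms, 29 of 148 members (19.6%) had an adjusted p under 0.05 (edgeR), beside 15.9% of all genes. In 13 of these the replicate 1 libraries averaged lower than those of replicates 2 and 3, and in 16 higher. The lower set held transporters of amino acids, lactate, folate and zinc and of the secretory pathway: Slc16a10 (0.37 times the mean of replicates 2 and 3), Slc19a1 (0.477), Slc30a5 (0.548), Slc39a6 (0.578), Slc39a10 (0.576), Slc39a14 (0.593), Slc35b1 (0.602), Slc35b4 (0.599), Slc33a1 (0.496), Slc16a1 (0.618), Slc7a5 (0.658), Slc38a1 (0.659) and the glutamate carrier Slc25a22 (0.516). The higher set was led by the magnesium transporter Slc41a3 (3.2 times), the zinc exporter Slc30a1 (2.96 times), Slc27a1 (2.24 times), which takes up and activates fatty acids, Slc25a23 (2.22 times) and Slc26a11 (2.19 times). Both replicate 1 libraries lay outside the range of the other 4 in 76 members (51.4%), against 44.6% of all genes. They lay below it in 42 members and above it in 34 (23% and 21.6% of all genes), and below it in 9 of the 18 amino acid transporters. Across the 148 members, the log2 ratio of replicate 1 to the mean of replicates 2 and 3 in WT and in Scd-1-/- Teff had a Pearson r of 0.68, and across all 9627 genes of 0.59. These are descriptions across genes that share the same 6 libraries. The ratios pointed the same way in 79.7% of members and 73.5% of all genes; among members they were above 0 in 59 and below 0 in 59, and in opposite ways in 30.

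**Figure D5:**
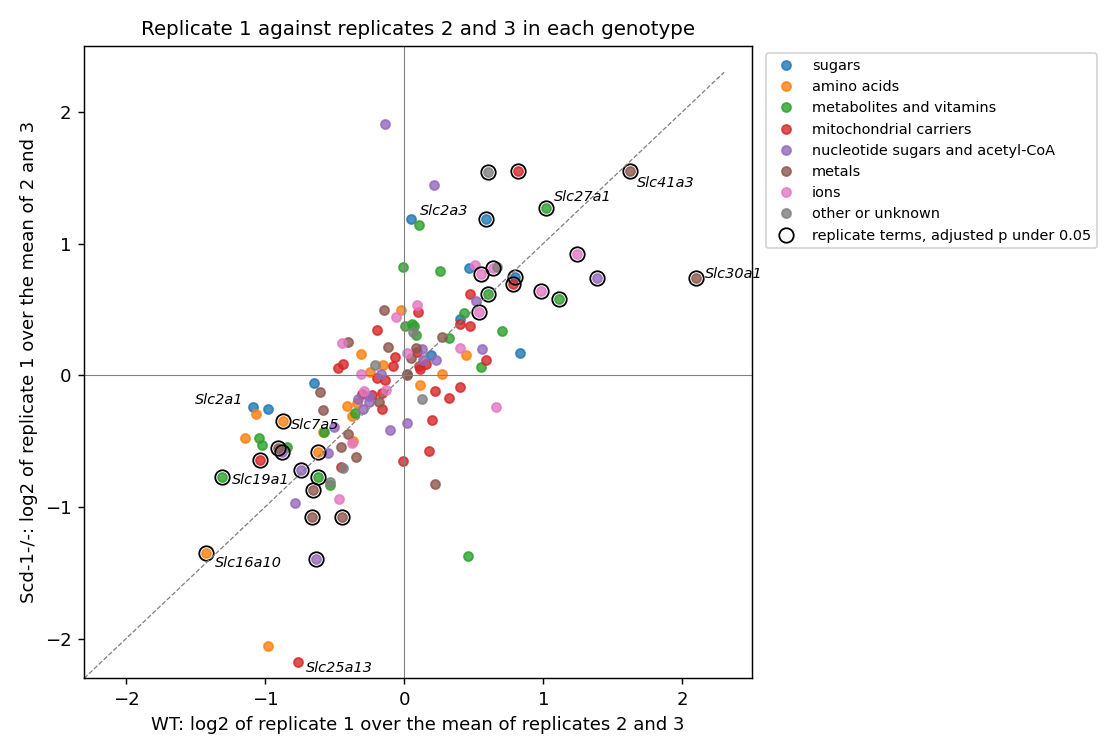
Log2 ratio of the FPKM in replicate 1 to the mean of replicates 2 and 3 (0.1 added to each) in WT (horizontal) and Scd-1-/- (vertical) Teff, with 1 point for each of the 148 members, coloured by substrate group. Ringed points are the 29 members with an adjusted p under 0.05 for the replicate terms. Slc16a10 lies low and Slc41a3 high in both genotypes, while Slc2a3 is at 0.05 in WT cells against 1.19 in Scd-1-/- cells.

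Of 24 known T cell transporters, 23 were tested, all of them members described above, and 1, Slc43a2, passed the adjusted p with the block and 0 without. Their median log2 fold change was -0.08, with 9 above 0 and 14 below (49.9% and 50.1% of all genes). The other lists hold genes that are no members. Of 19 tested solute carriers under other names, among them the pyruvate carrier genes Mpc1 and Mpc2, and of 14 tested partners and regulators, such as the lactate transporter chaperone Bsg, 0 passed either fit, with medians of 0.05 and -0.02. Of 24 tested ion pumps and channels, Stim2, a calcium sensor of the endoplasmic reticulum, passed with the block alone, at 3.73, 2.90 and 4.52 FPKM in WT cells against 1.66, 1.98 and 2.34 in Scd-1-/- cells (log2 fold change -0.87, adjusted p = 0.223 in the plain fit and 0.0302 with the block, edgeR). Of 26 tested enzymes that act on imported substrates, 21 had a log2 fold change below 0 (50.1% of all genes), and 2 passed with the block. These were the hexokinase Hk1, at 38.4, 26.1 and 25.7 FPKM in WT cells against 28.0, 17.7 and 16.6 in Scd-1-/- cells, and the creatine kinase Ckb, at 21.3, 16.7 and 12.6 and 10.99, 5.90 and 5.54 FPKM. Their adjusted p was 0.0216 and 0.0121 with the block and 0.562 and 0.28 without it (edgeR). Of 11 tested transcription factors of nutrient transport, Mycn passed with the block, at 0.681, 0.768 and 0.468 FPKM in WT cells against 1.06, 3.20 and 2.31 in Scd-1-/- cells (adjusted p = 0.0369 with the block and 0.203 without, edgeR). Mycn reached the FPKM minimum through Scd-1-/- Teff alone, and its adjusted p was 0.0142 in the blocked fit with no minimum (edgeR). Myc stood at 10.8 FPKM on average in both. Over all 9627 genes, 4.7% passed the adjusted p with the block.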

How the data were processed

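RNA of 6 Teff libraries was sequenced, 3 WT and 3 Scd-1-/-. The study's methods (column extraction, stranded kit for total RNA) and the labels (Trizol, poly(A), a different library kit) disagree on how RNA was prepared, and whether counting used the strand is not given in the sources used here. The submitters' notes list FastQC, HISAT2, StringTie 1.3.0 and GRCm38. The authors deposited raw counts per gene and FPKM values for 34745 Ensembl genes. The quotient of count and FPKM varied from library to library with nothing but the total count (8274 genes checked, within 1%), so the deposited FPKM carry no TMM factor.

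Members were rows with a symbol of Slc and a digit and a mean FPKM of at least 1. Substrate sets were written by hand. The members, lists and tests were chosen with earlier results of these data known. Named genes are members past a threshold, the 12 largest differences among members without overlap, the 3 most abundant of each set, known T cell transporters, the 4 rows on each side of the minimum, members whose call changes with the block, and genes of the other lists past a threshold in either fit. A member and a marker under these rules are not reported here. The neighbours of Slc6a19, members named only for the replicate terms, and members named for reaching 1 FPKM in 1 genotype or for exon overlap were chosen after their values were seen. Counts were tested with edgeR 4.0.16 (R 4.3.3, quasi-likelihood, TMM factors 0.986 to 1.03) on 9627 genes, with no covariate, and SEs were derived from the F statistic. Calls needed a log2 fold change of 1 or more in either direction and p under 0.001, and a Benjamini-Hochberg adjusted p under 0.05 is given beside them. Replicate numbers were taken to pair the libraries, since deviations from the group means of same-numbered libraries correlated across genes at r of 0.583, 0.297 and 0.459 for numbers 1, 2 and 3. Libraries of unlike number correlated at -0.544 to 0.357, the highest being WT replicate 3 with Scd-1-/- replicate 2, above the pair of number 2. What a number stands for is not given in the sources used here. The test was tried on simulated counts. Alternatives were median-ratio scaling, DESeq2 1.42.0, limma 3.58.1 on log2(FPKM + 1) and log2(FPKM + 0.1), no minimum, a minimum of 5, the replicate block, each library left out and replicates 2 and 3 alone. In the fit without a minimum, the block (for Slc6a19, Slc2a6, Slc37a2 and Mycn) and the left-out libraries (for Slc6a19) were added after seeing the data. At 14034479 to 15866216 counts, a count of 0 allows up to 3 counts, for counting error only. Positions are from GENCODE M21 (GRCm38), matched for all 148 members.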

Additional observations from a re-analysis of the deposited data

How the results depend on the processing

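In the plain edgeR fit, 0 members passed the thresholds and 0 the adjusted p, with 8 at an unadjusted p under 0.05. Median-ratio scaling, both limma fits, no FPKM minimum and a minimum of 5 also gave 0 for both. DESeq2 gave 2 and 3 members, the replicate block 2 and 7, and replicates 2 and 3 alone 7 and 20, while leaving out 1 library gave 0 to 2 for both (2 without WT replicate 1 or without Scd-1-/- replicate 1). Over all genes, 71 passed the thresholds and 11 the adjusted p. The counts became 161 and 266 with DESeq2, 148 and 84 with no minimum, 43 and 18 with a minimum of 5, 184 and 452 with the block, 369 and 1213 in replicates 2 and 3 alone, and 25 to 163 and 2 to 182 with 1 library left out, and limma on log2(FPKM + 1) gave 17 for the adjusted p. Fewer genes were tested with the minimum of 5 and more with none, and for the other settings the cause was not tested. Members past the adjusted p for the replicate terms fell from 29 to 13 with a minimum of 5, where fewer members were tested. The block changed no call of a member beyond those given in the report.

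Slc2a6 and Slc37a2 passed the thresholds with DESeq2, with the block, without WT replicate 1 and in replicates 2 and 3 alone, and with 1 library left out their log2 fold changes ran from -1.94 to -1.38 and from 1.12 to 1.75. Slc2a3 (-1.11) and Slc14a1 (-1.50) passed without Scd-1-/- replicate 1, and these and Slc25a23 (-1.31) passed in replicates 2 and 3 alone. For all 5 genes, the settings without a replicate 1 library leave out the number in which the genotypes stood closest, and so lend these calls no support. Slc6a19 kept its side of the thresholds in every added fit, with a log2 fold change of -2.39 and an adjusted p of 0.000279 with the block, and of -2.55 to -2.20 with 1 library left out (edgeR).

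Of the 53 members named by the rule, 15 with a log2 fold change near 0 changed sign in 1 or more settings, and the cause was not tested. With 1 library left out, the log2 fold change ran from -0.27 to 0.12 for Slc7a5, -0.095 to 0.089 for Slc1a5, -0.26 to 0.076 for Slc38a1, -0.24 to 0.0093 for Slc7a6, -0.036 to 0.44 for Slc20a1, -0.17 to 0.079 for Slc48a1, -0.18 to 0.21 for Slc16a1, -0.10 to 0.028 for Slc39a4, -0.58 to 1.05 for Slc30a1, -0.014 to 0.11 for Slc25a5, -0.022 to 0.066 for Slc25a3, -0.037 to 0.28 for Slc25a26, -0.047 to 0.094 for Slc35b2, -0.15 to 0.049 for Slc35c1 and -0.15 to 0.044 for Slc9a3r1. In limma on log2(FPKM + 1) and log2(FPKM + 0.1), the sign also changed for Slc1a5 (-0.0013 and -0.0011), Slc30a1 (0.0014 and 0.12) and Slc35b2 (-0.016 and -0.017). In replicates 2 and 3 alone it changed for Slc1a5 (-0.024), Slc16a1 (0.037), Slc30a1 (0.72), Slc25a26 (-0.062) and Slc35b2 (-0.044). Slc30a1 was at 0.11 with the block, and Slc35b2 at -0.0031 with median-ratio scaling, -0.0030 with DESeq2, -0.0093 with no minimum and -6.1e-06 with a minimum of 5. Genes near 1 FPKM rest on few counts (33 to 162 for Slc2a6), which limits the precision of their fold changes.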
